A study of Mus musculus with 2 samples.

Results

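Ribosome biogenesis factors are the proteins that transcribe, cleave, modify and fold ribosomal RNA (rRNA) and assemble it with ribosomal proteins into subunits. The set described here holds 40 such genes among 16263 genes with a value in each of 2 RNA-seq libraries from cultured mouse macrophages. The genes were picked by symbol from a fixed list of rRNA transcription, processing and subunit assembly factors, and that list was drawn up with the difference between these libraries known. The members were therefore in part selected on the comparison of wild-type (WT) with SIRPα-knockout (SIRPα-KO) values, and their ratios below are a description of 2 libraries, with no test. All 40 symbols were found in both tables.

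Both groups were macrophages of C57BL/6 mice, wild type in the WT group and SIRPalpha-/- in the SIRPα-KO group. They had been derived from bone marrow over 5 days with conditioned medium that supplied M-CSF, the macrophage growth factor. All cells had then received interferon-γ (20 ng/ml) and LPS (100 ng/ml) for 6 h together with mCD47.ex, a reagent that the labels do not describe further, and neither group was left unstimulated. SIRPα restrains myeloid cells when it binds CD47, and the comparison addresses how its loss alters transcripts of activated macrophages. Cells of 5 mice were pooled per genotype, so each group is 1 library, and the targeted allele is not described in the sources used here.

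Ribosomes are made in the nucleolus. RNA polymerase I transcribes a long precursor rRNA there, small nucleolar ribonucleoproteins (snoRNPs) guide its cleavage and chemical modification, and separate sets of assembly factors build the small and the large subunit before export. In many cell types these factors are under shared transcriptional control that includes Myc, and their output follows growth and activation state.

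Values were read as FPKM, a fragment count relative to transcript length and to sequencing depth, from their steps, since the tables name no unit. Levels of different genes within a library are compared per length on that reading. Depth read from the steps of low values was about 11500000 reads (WT) and 11400000 (SIRPα-KO). The label check gene Sirpa had 153.87 FPKM in the WT library against 71.47 in the one labelled SIRPα-KO, so its transcript was lower but still present there. Macrophage markers were abundant in both libraries: their summed level was 9610 FPKM (WT) and 9290 (SIRPα-KO) over 11 genes found, with Lyz2 at 7106.27 and 7207.7, while Csf1r (247.59 and 109.8) was lower in SIRPα-KO. The pools also differed in sex-linked RNA, Xist at 47.54 and 0.91 FPKM and the Y-linked Ddx3y at 0 and 11.56, and effects of genotype cannot be told apart from those of the animals' sex.

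The ribosome biogenesis factors were shifted upward as a set in the SIRPα-KO library, by a modest amount per gene. Of the 40 members, 37 reached 1 FPKM in at least 1 library, and 36 of these 37 had a log2 ratio of SIRPα-KO to WT above 0, where 56.1% of all 10092 genes kept by the same filter did. The median log2 ratio of the 37 members was 0.51 (range 0.00 to 1.48, middle 50% from 0.29 to 0.86), beside 0.06 for all kept genes. Ratios were taken on FPKM + 1, which shrinks them for genes of low level. The filter can keep a gene through the library in which it is high, so these counts describe kept members only.

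At least 2-fold on that scale, 4 of the 37 members were higher and 0 lower, against 3.43% higher and 4.30% lower among all kept genes. The 4 genes were Gtpbp4, Ddx21, Pinx1 and Wdr75. At a 1.5-fold limit 17 members (45.9%) were higher and 0 lower, against 10.9% and 10.2% of all kept genes. With a pseudocount of 0.1 in place of 1, 8 members passed 2-fold upward, against 5.84% of kept genes. Of the 4 genes, Gtpbp4 alone stayed past 2-fold when the SIRPα-KO values were rescaled by the median of ratios or by a trimmed mean, which lower log2 ratios by up to about 0.08, and by less for genes of low level. That is 1 of 37 members, beside 2.96% and 2.97% of all kept genes under these scalings, so the 2-fold count is then near the background. The median of the members was 0.44 under either scaling. With 1 library per genotype none of these differences has a replicate check, and in a bulk sample fewer cells of a type and less RNA per cell cannot be told apart.

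**Figure D1:**
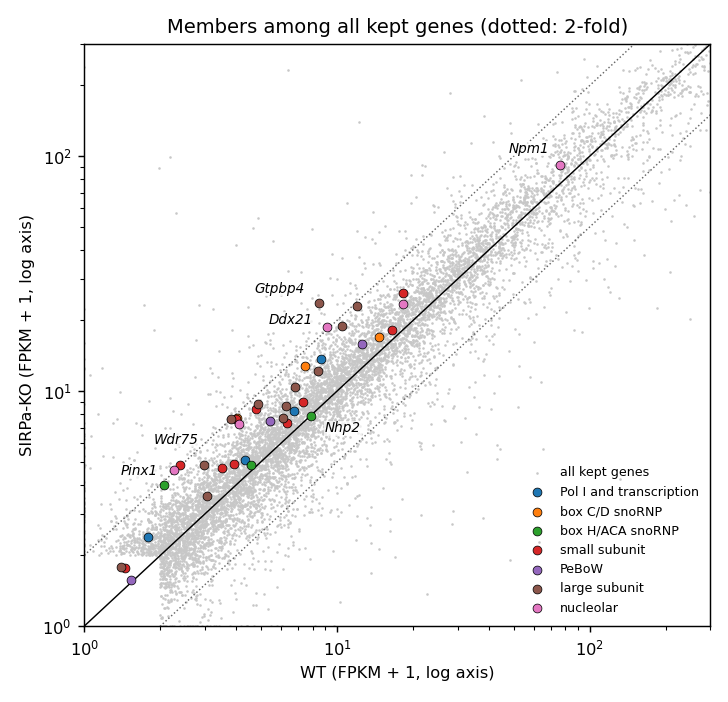
Each point is a gene, with its WT value on the x axis and its SIRPα-KO value on the y axis, both as FPKM + 1 on log axes; grey points are the 10092 kept genes and coloured points the 40 members by role. All but Nhp2 among the 37 kept members lie above the solid line of equality, and Gtpbp4, Ddx21, Wdr75 and Pinx1 lie on or beyond the upper dotted 2-fold line; genes above 300 FPKM are outside the axes.

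**Figure D2:**
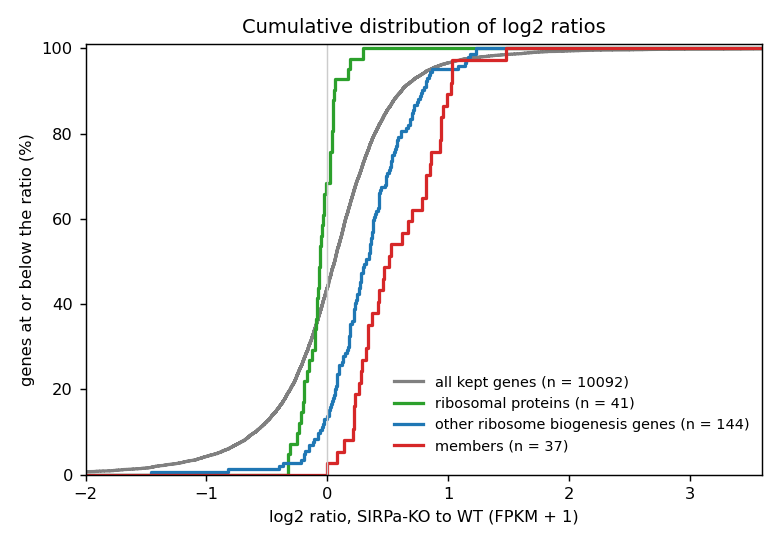
The curves give the percentage of genes (y axis) at or below each log2 ratio of SIRPα-KO to WT (x axis) for the 37 kept members, 144 other ribosome biogenesis genes, 41 ribosomal protein genes and all 10092 kept genes. The members' curve has a median of 0.51 against 0.32, -0.06 and 0.06 for the other groups.

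Summed over the 40 members, the level was 295 FPKM for WT against 438 for SIRPα-KO, a ratio of 1.49. These sums are 0.0663% and 0.101% of each library's FPKM total. Npm1 alone made up 25.5% of the WT sum and 20.6% of the SIRPα-KO sum, and without it the ratio of the sums was 1.58. The order of the members by level was much alike in both libraries (Spearman's rho 0.95 across 40 genes, which share both libraries). Gtpbp4 moved most upward in that order, from place 11 in WT to place 3 in SIRPα-KO, and Imp4 most downward, from place 18 to place 26, although its own level was not lower in SIRPα-KO.

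Gtpbp4 (gene number 69237), a GTPase that acts on nucleolar precursors of the large subunit, had the largest ratio of the set. Its value was 7.48 FPKM for WT against 22.6 for SIRPα-KO, which is 3.02-fold. Counted over the coding sequence only, these values stand for about 160 and 478 reads, which gives a 95% counting interval of 2.52 to 3.63 for the fold (exact conditional binomial). Intervals here rest on such estimated reads, leave out UTR reads, and cover counting error in 1 library each, not variation between mice. Over the 37 kept members, 28 intervals lay above 1, 9 spanned 1 and 0 lay below it. Abundant genes pass this mark at small folds, as Npm1 did at 1.2-fold (1.08 to 1.34). The same count was not made over all kept genes, so it does not set the members apart. A Gtpbp4 antisense gene of the annotation, Gm48649, shares 316 exon bases with it, and reads of the 2 strands cannot be separated where the use of strand is not given. Only 1.49% of all kept genes had a log2 ratio as high.

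Ddx21, an RNA helicase of the nucleolus that links polymerase I transcription to rRNA processing, had 8.12 FPKM in WT and 17.68 in SIRPα-KO (2.18-fold, counting interval 1.86 to 2.55). Pinx1, a nucleolar protein also known as an inhibitor of telomerase, had 1.26 and 3.63 FPKM. Its 2.88-fold difference rested on about 14 and 39 reads, with an interval of 1.5 to 5.61. Wdr75, a subunit of the early small-subunit complex that also supports transcription of precursor rRNA, had 1.39 and 3.84 FPKM (2.76-fold, interval 1.91 to 4.11). On the FPKM + 1 scale Ddx21 and Pinx1 came to 2.05-fold and Wdr75 to 2.03-fold, just inside the limit. Gnl3 at 1.99-fold and Gar1 at 1.94-fold were the nearest outside it.

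RefSeq promoter sequences (GRCm38.p6, 250 bases before to 50 after the start site) were held for 34 of the 40 members and were not held for Npm1, Fbl, Bop1, Rrs1, Pinx1 and Rrp12. They were searched on both strands for 4 words, none of which contains another. These were the E-box CACGTG that Myc and Max bind, the ETS-type word CCGGAAG, the CCAAT box (its letters as in the name) and the TATA-type word TATAAA. The E-box was in 7 of 34 members (20.6%), 22 of 122 other ribosome biogenesis genes and 12.2% of 8060 kept genes with a promoter. The ETS-type word was in 11 members (32.4%) and 22.3% of kept genes, CCAAT in 9 (26.5%) and 42.3%, and TATAAA in 2 (5.88%) and 8.72%. These are counts of letters in a window, and no test was made. In the 250 bases upstream alone, the E-box was in 3 members (8.82%) and 10.3% of kept genes.

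The 150 bases directly before the start site are shown for the 3 members past 2-fold that have a promoter entry, Gtpbp4 (chr13:8996013-8996162, minus strand), Ddx21 (chr10:62602299-62602448, minus strand) and Wdr75 (chr1:45795016-45795165, plus strand), and for the 3 members with an upstream E-box, Nop2 (chr6:125131733-125131882, plus strand), Nmd3 (chr3:69721905-69722054, plus strand) and Imp4 (chr1:34439679-34439828, plus strand). Each is written 5′ to 3′ on the strand of its gene, in lower case, and capitals mark the words searched.
Gtpbp4: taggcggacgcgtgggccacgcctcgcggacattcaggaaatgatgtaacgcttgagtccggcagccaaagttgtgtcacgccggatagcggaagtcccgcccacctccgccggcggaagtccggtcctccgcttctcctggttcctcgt
Ddx21: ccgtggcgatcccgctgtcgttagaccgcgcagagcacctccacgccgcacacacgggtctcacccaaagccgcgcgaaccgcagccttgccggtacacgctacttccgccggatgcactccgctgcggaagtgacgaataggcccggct
Wdr75: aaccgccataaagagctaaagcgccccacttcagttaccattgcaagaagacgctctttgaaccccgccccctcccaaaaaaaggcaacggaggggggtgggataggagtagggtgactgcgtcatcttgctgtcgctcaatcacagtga
Nop2: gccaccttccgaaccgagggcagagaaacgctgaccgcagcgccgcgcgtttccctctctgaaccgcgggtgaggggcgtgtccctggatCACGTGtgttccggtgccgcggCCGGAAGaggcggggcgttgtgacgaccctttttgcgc
Nmd3: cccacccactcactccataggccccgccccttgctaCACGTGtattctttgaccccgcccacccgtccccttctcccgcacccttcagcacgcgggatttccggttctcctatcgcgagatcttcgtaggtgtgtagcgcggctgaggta
Imp4: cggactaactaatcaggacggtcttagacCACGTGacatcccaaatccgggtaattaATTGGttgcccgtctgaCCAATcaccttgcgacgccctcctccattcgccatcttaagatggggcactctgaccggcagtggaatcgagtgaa
None of the 4 words occurs in the first 3 stretches. The E-box begins 60 bases before the start site in Nop2, which also holds the ETS-type word 38 bases before it, 114 bases before it in Nmd3 and 121 in Imp4. The log2 ratios of these 3 genes were 0.86, 0.85 and 0.21.

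**Figure D3:**
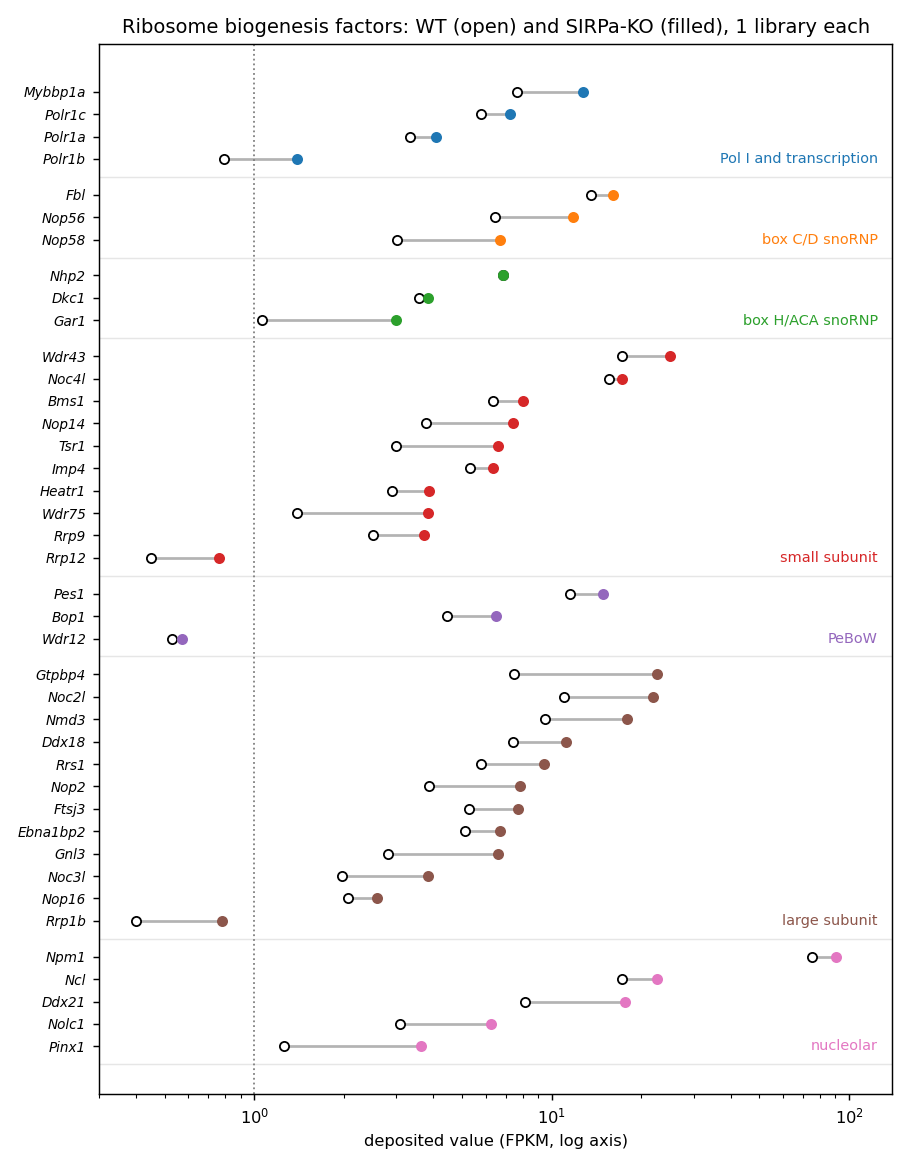
Deposited values (x axis, FPKM, log axis) of the 40 members, 1 row per gene, grouped by role; the open circle is the WT library, the filled circle the SIRPα-KO library and the dotted line the 1 FPKM filter. Filled circles lie to the right of open ones in every row except Nhp2, where both coincide, and Rrp12, Wdr12 and Rrp1b stay left of the dotted line in both libraries.

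Of the 4 members that act in rRNA transcription, 1 was past 1.5-fold on the FPKM + 1 scale. The largest subunit of RNA polymerase I, Polr1a, had 3.34 FPKM in WT and 4.07 in SIRPα-KO. Polr1b, the other large core subunit, was low in both, at 0.79 and 1.39, and Polr1c, which polymerases I and III share, had 5.78 and 7.24. These are log2 ratios of 0.22, 0.42 and 0.28, and the counting interval of Polr1c (0.9 to 1.76 on the fold) includes equality. Mybbp1a, a nucleolar protein that modulates rRNA synthesis and processing, had 7.62 and 12.74 FPKM (1.67-fold, interval 1.46 to 1.91). On the plain FPKM scale Polr1b, at 1.76-fold, was as far apart, with a wider interval of 1.09 to 2.78. None of these 4 genes was past 2-fold.

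The 16 kept genes among the other polymerase I subunits and factors had a median of 0.07, close to that of all genes, with 10 above 0 and 0 past 2-fold in either direction. Polr1d, the most abundant of them, had 31.08 and 31.5 FPKM, and the initiation factors Ubtf (12.98 and 12.69) and Rrn3 (4.33 and 5.93) stayed within 1.5-fold on the FPKM + 1 scale. Past 1.5-fold on that scale, 2 of the 16 (12.5%) were higher and 0 lower, against 10.9% and 10.2% of all kept genes. These were Taf1d, also an initiation factor (5.92 and 9.56), and Polr2h (1.51 and 2.82). The rRNA rows of the tables were lower in SIRPα-KO: Rn18s, the mature small-subunit rRNA, had 1548.56 and 162.53 FPKM, and the precursor row Rn45s 5.10 and 2.83. Rn28s1 had 7.16 FPKM in WT and is listed at 0 in SIRPα-KO. Whether and how rRNA was removed is not given in the sources used here, so remaining rRNA and rRNA made by the cells cannot be told apart.

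The box C/D snoRNP methylates rRNA at sites chosen by its guide RNA. Its scaffold proteins Nop58 and Nop56 were higher in SIRPα-KO, at 6.69 against 3.01 FPKM (2.22-fold, interval 1.6 to 3.13) and 11.82 against 6.45 (1.83-fold, interval 1.46 to 2.29). Fbl, the methyltransferase of the same particle, had 13.61 FPKM in WT and 16.04 in SIRPα-KO (1.18-fold, interval 0.94 to 1.49). Of these 3 members, the enzyme was nearest to equality, and its interval overlapped that of Nop56 but not that of Nop58. Nhp2l1, the remaining core protein of this particle and not a member, had 24.96 FPKM (WT) against 46.43 (SIRPα-KO), or 0.87 as a log2 ratio. Nop56 and Fbl share 37.6% and 73.0% of their 50-base words with other annotated genes, Fbl mostly with Tulp4, and how reads of such stretches were counted is not known.

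The box H/ACA snoRNP converts uridines of rRNA to pseudouridine and is also part of telomerase. Gar1 had 1.06 and 3 FPKM, a 2.83-fold difference carried by about 8 and 22 reads (interval 1.19 to 7.22). The enzyme Dkc1, the X-linked member of the set, had 3.58 and 3.85, and Nhp2 6.86 and 6.84, the only kept member without a higher value in SIRPα-KO. Their intervals, 0.75 to 1.55 and 0.6 to 1.7, do not exclude differences as large as 1.5-fold upward. Nop10, the remaining core protein of this particle and not among the 40, had 29.42 FPKM (WT) against 70.24 (SIRPα-KO), or 1.23 as a log2 ratio. Gar1 and Nop10 were thus further apart between libraries than Dkc1, although the intervals of Gar1 and Dkc1 overlapped.

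Among the 10 small-subunit factors, 9 were kept, with a median log2 ratio of 0.43 and with Wdr75 past 2-fold. Tsr1, a late maturation factor, had 2.99 FPKM in WT and 6.62 in SIRPα-KO (2.21-fold, interval 1.7 to 2.92), and Nop14 had 3.77 and 7.42 (1.97-fold, interval 1.55 to 2.5). Tsr1 overlaps Srr on the opposite strand by 1159 exon bases, and Srr had 2.1 and 3.6 FPKM. Noc4l, the binding partner of Nop14, had 15.56 and 17.28, so the ratios of the pair were 0.82 and 0.14 on the log2 scale.

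Wdr43, another early-acting subunit and the most abundant small-subunit member, had 17.28 and 25.08 FPKM (1.45-fold, interval 1.27 to 1.65). The large scaffold Heatr1 had 2.91 and 3.88, and the GTPase Bms1 6.36 and 8. Rrp9, a protein of the snoRNP for early cleavage, had 2.5 and 3.71, and Imp4, which works with that snoRNP, had 5.33 and 6.34. Rrp12, which takes part in subunit export, was under the filter at 0.45 and 0.76. All 10 values were higher in SIRPα-KO, 3 of the 9 kept ones by 1.5-fold or more on the FPKM + 1 scale, beside 10.9% of all kept genes. The counting intervals of Imp4 (0.8 to 1.76), Noc4l (0.94 to 1.32), Rrp9 (0.96 to 2.25) and Rrp12 (0.93 to 3.07) include equality.

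Among the 47 other small-subunit genes, 41 had a ratio above 0 (87.2%, beside 56.1% of all kept genes) and the median was 0.35. Past 2-fold, 2 were higher and 0 lower, against 3.43% and 4.3% of all kept genes, so the higher count was near the background. The higher ones were Utp18 (4.1 and 10.55 FPKM) and Mphosph10 (3.39 and 8.72), both parts of the complex that cleaves the precursor co-transcriptionally. The lowest ratio of this list belonged to Rcl1, at 8.65 and 4.45 FPKM, which is named because of its value.

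For large-subunit factors, 11 kept of 12, the median log2 ratio was 0.70, and 7 of the 11 were past 1.5-fold, Gtpbp4 included. Gnl3 (nucleostemin), a nucleolar GTPase of proliferating cells, had 2.82 FPKM in WT and 6.61 in SIRPα-KO (2.34-fold, interval 1.67 to 3.31). Noc2l had 10.98 and 21.99 (2-fold on the FPKM scale, interval 1.73 to 2.32), and its partner Noc3l 1.97 and 3.84. The antisense neighbour of Noc2l, Samd11, had 2.2 and 4.97 FPKM and shares 598 exon bases with it.

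Nop2, an rRNA methyltransferase, had 3.88 and 7.84 FPKM (2.02-fold, interval 1.6 to 2.59). Nmd3, the adaptor that carries the large subunit out of the nucleus, had 9.48 and 17.89 (1.89-fold, interval 1.55 to 2.3). Rrs1 had 5.79 and 9.43, and the row of its pseudogene 4632415L05Rik 5.84 and 12.43. The log2 ratio was 0.62 for Rrs1 alone and 0.86 for the sum of both rows. Members past 1.5-fold thus included both nucleolar assembly proteins and the export adaptor.

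The helicase Ddx18 had 7.42 and 11.17 FPKM, with 62.7% of its words found in other genes too. Ftsj3, another rRNA methyltransferase, had 5.28 and 7.68, and Ebna1bp2 5.1 and 6.71. Nop16 was close to equality at 2.06 and 2.58 (interval 0.51 to 2.79), and Rrp1b was under the filter at 0.40 and 0.78. The PeBoW complex, which Pes1, Bop1 and Wdr12 form to process large-subunit rRNA, was nearer to equality: Pes1 had 11.51 and 14.83 FPKM, Bop1 4.44 and 6.48, and Wdr12 0.53 and 0.57, under the filter. No gene of this complex reached 1.5-fold on the FPKM + 1 scale.

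Of 51 other large-subunit genes, 48 had a ratio above 0 (94.1%, beside 56.1% of all kept genes), with a median of 0.37. Past 2-fold, 3 were higher and 0 lower, against 3.43% and 4.3% of all kept genes. Spata5, an ATPase that recycles assembly factors, had 4.46 and 11.83 FPKM. Rrp15 had 1.17 and 3.78, and Sdad1 2.8 and 7.03, both of them nucleolar assembly proteins.

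The 5 multifunctional nucleolar proteins had the highest median of the member roles (0.82), with Ddx21 and Pinx1 past 2-fold, while the 2 most abundant of them were closer to equality. Npm1 (nucleophosmin), a chaperone that organises the nucleolus, had 75.23 FPKM in WT and 90.34 in SIRPα-KO (1.2-fold, interval 1.08 to 1.34), and it shares 34.5% of its words with other genes. Ncl (nucleolin) had 17.24 and 22.53 (1.31-fold, interval 1.15 to 1.49). Nolc1, a chaperone of snoRNPs, had 3.09 and 6.23 (2.02-fold, interval 1.52 to 2.71). Across the 37 kept members, Spearman's rho between log2 ratio and mean level was -0.11, and the points share both libraries.

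**Figure D4:**
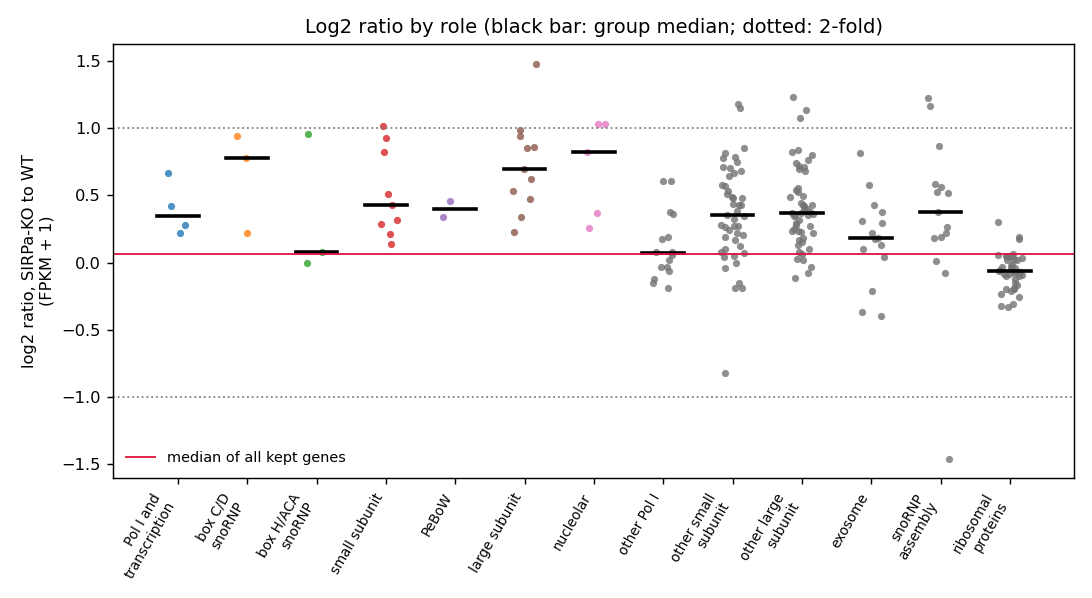
Log2 ratios of SIRPα-KO to WT (y axis, FPKM + 1) of single genes by role (x axis), with members in colour and other genes in grey; black bars are group medians, the red line is the median of all kept genes (0.06) and dotted lines mark 2-fold. Large-subunit and nucleolar members have medians of 0.70 and 0.82, whereas the other polymerase I genes (0.07) and ribosomal proteins (-0.06) sit near the red line. The median of the 3 box H/ACA members (0.08) is near that line too.

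The other genes of the pathway leaned the same way with a smaller median. Of 148 listed genes found in the tables, 144 were kept, 124 of them had a ratio above 0 (86.1%, beside 56.1% of all kept genes), and the median was 0.32. Past 2-fold, 7 of the 144 were higher and 1 lower, against 3.43% and 4.3% of all kept genes. The count of higher genes was thus near the background. Genes listed for the exosome, which trims rRNA ends, and for related nucleases and cofactors had a median of 0.18 over 15 genes. Of these, 0 were past 2-fold. The most abundant was Xrn2, a separate exonuclease that is not part of the exosome, with 54.48 and 67.13 FPKM. A mixed list of snoRNP assembly factors, core snoRNP proteins such as Nop10 and RNase subunits such as Pop4 had a median of 0.38 over 15 genes. There Nop10 and the cap methyltransferase Tgs1 (27.79 and 63.47 FPKM) were higher, and Pop4 (23.2 and 7.8), a subunit of the RNase that cuts precursor rRNA, was lower.

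Annotation in the tables themselves gave a lower median outside these lists, over a mixed group of genes. The deposited term for ribosome biogenesis was attached to 82 genes, of which 11 are members. Of the genes with this term in neither list, 27 were kept, and their median was 0.02, with 14 above 0, 0 higher and 2 lower past 2-fold. The highest values in this group, 393.95 FPKM (WT) and 400.59 (SIRPα-KO), are those of the ribosomal protein gene Rpl26. How many ribosomal protein genes it holds was not counted, so its median does not describe assembly factors alone. This grouping was chosen after the values were seen.

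Cytosolic ribosomal protein genes, the structural parts that these factors assemble, lay on the other side of equality by a small margin. Over the 41 such genes listed, which are not all of those in the tables, the median was -0.06, with 13 above 0 and 0 past 2-fold in either direction. Within this list the highest ratio was that of Rps24 (634.52 and 780.86 FPKM) and the lowest that of Rpl37 (100.77 and 80).

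Genes that carry snoRNAs in their introns but were listed apart from the members had a median of 0.48 over 13 kept. Past 2-fold, 3 were higher and 0 lower, against 3.43% and 4.3% of all kept genes. The highest was Snhg1 (2.58 and 8.43 FPKM) and the lowest Rpl13a (168.11 and 124.5). Of the 40 members, 7 hold a total of 21 snoRNA genes within their bodies in the GENCODE annotation, among them Ncl, Nop56, Nop58 and Gnl3. The 4 of these snoRNAs with rows in the tables were Snora75 (1.1 FPKM in WT), Snord91a (3.71) and Snord19 (4.48), each listed at 0 in SIRPα-KO, and Snord69, listed at 0 in both. RNAs this short stand for very few reads here and no direction is read from them.

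Within the listed genes of the Myc network, Mxd1 was the gene past 2-fold. Mxd1 pairs with Max and represses, and its level was 135.38 FPKM for WT against 50.17 for SIRPα-KO (log2 ratio -1.41). Max itself had 180.2 and 236.31. Mlxip (13.38 and 18.18), Mga (4.13 and 5.82), Mxd3 (11.75 and 11.96) and Mlx (10.58 and 9.73) were within 1.5-fold on the FPKM + 1 scale. Myc, named here after its value was seen, was low in both libraries, at 1.22 and 1.83 FPKM. A relation of any of these genes to the biogenesis factors was not tested.

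Levels of proliferation genes and of markers of other cells also differed between the libraries. Among all kept genes, 3.43% were higher and 4.3% lower past 2-fold. Of 21 proliferation genes found, 14 were kept, with 0 higher and 2 lower past 2-fold, a median of -0.36 and summed levels of 165 FPKM in WT and 152 in SIRPα-KO. Mki67 (3.49 and 6.7) and Mcm6 (8.62 and 1.08) lay at opposite ends. Neutrophil and precursor markers summed to 546 FPKM in WT and 288 in SIRPα-KO over 14 genes (12 kept, 0 higher and 5 lower), with Retnlg listed at 0 in SIRPα-KO. Dendritic cell markers summed to 62.3 and 199 FPKM over 13 genes (9 kept, 4 higher and 1 lower), with Cd209a listed at 0 in SIRPα-KO. Ccl22 (11.19 and 139.11 FPKM) carried most of that difference, and without it the sums were 51.1 and 59.6. Also higher past 2-fold were Ccr7 (6.93 and 23.81), H2-DMb2 (0.91 and 4.7) and Dpp4 (1.32 and 4.95). The 1 lower gene was Itgax, an integrin of dendritic cells, at 27.73 and 12.08. Itgax was the largest part of the WT sum without Ccl22, so the near-equal sums rest on it. Erythroid and megakaryocyte markers summed to 54.9 and 178 FPKM over 8 genes (4 kept, 1 higher and 0 lower), or to 17.6 and 30.6 without the platelet chemokine Pf4 (37.26 and 147.69), and Klf1 was listed at 0 in both. Stromal and endothelial markers summed to 75.7 and 162 over 10 genes (10 kept, 1 higher and 0 lower), or to 27.8 and 37.1 without the adhesion molecule Vcam1 (47.85 and 124.88). B cell markers summed to 46.3 and 44.5, T and NK cell markers to 37.3 and 26.6, and mast cell and basophil markers to 28.6 and 31.4, with 0 genes past 2-fold in these lists. Blnk (40.41 and 42.07 FPKM) made up most of both B cell sums, and 3 of the 4 kept B cell genes were lower in SIRPα-KO. The part of these differences in the members' ratios was not tested.

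Values that bear on comparability differed between the libraries as well. Malat1, a nuclear RNA, had 83.7 and 32.93 FPKM. Kept genes within the members' middle range of mean level (3.71 to 12.9 FPKM) had a median log2 ratio of 0.08 over 3213 genes, and those within the members' middle range of transcript GC content (44.8% to 53.7%) had 0.07 over 4725 genes. Both bands lay close to the median of all kept genes.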

How the data were processed

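The authors deposited 1 table per library with a gene number, symbol, annotation terms and 1 value per gene. The deposited values were taken as FPKM, inferred from values that step with transcript length; the headers name no unit. Per the submitters' processing notes, R 3.3.3, DESeq2 and the mm9 genome were used, without roles; for aligner, counter and strand use, "not given in the sources used here" applies. Low values lay within 0.15 of whole reads for 66.7% (WT) and 66.5% (SIRPα-KO) of 1945 and 1906 genes; reads were not recovered and no count model was fitted.

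The ratio was log2((SIRPα-KO + 1)/(WT + 1)), for genes that reach 1 FPKM in either library. With 1 library per group no p-value was computed and a call means 2-fold. The members and lists were chosen with earlier results of these data known. The naming rule took all 40 members and up to 3 genes past 2-fold per direction and list, otherwise the most abundant gene. It also took Myc network genes at 5 FPKM or more. Named after their values were seen were Ubtf, Rrn3, Taf1d, Polr2h, Nhp2l1, Rcl1, Myc, Malat1 and the single genes of the marker and proliferation lists. The promoter words were chosen then too. Shared 50-base words, coding lengths and overlaps came from GENCODE M21 (GRCm38). Ratio and depth steps were tested on simulated data (Python 3.11.15, SciPy 1.17.1).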

Additional observations from a re-analysis of the deposited data

How the results depend on the processing

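The count of members at least 2-fold higher depended on the settings. It was 4 of 37 as reported, 8 with a pseudocount of 0.1, 1 with a pseudocount of 5, 2 of 27 with a minimum of 5 FPKM, 1 with median-of-ratios scaling and 1 with trimmed-mean scaling, 17 at a 1.5-fold limit and 0 at a 3-fold limit. The count of lower members was 0 under all of these. As reported, 3.43% of all kept genes were higher and 4.3% lower. The share higher was 5.84% with a pseudocount of 0.1, 10.9% at the 1.5-fold limit, and 2.96% and 2.97% under the 2 scalings. For a pseudocount of 5, a minimum of 5 FPKM and a 3-fold limit it was not computed. Those member counts therefore have no background beside them. Of the other ribosome biogenesis genes, 8 were past 2-fold as reported, 17 with a pseudocount of 0.1, 3 with a pseudocount of 5, 33 at a 1.5-fold limit and 0 at a 3-fold limit. These counts join both directions, and the joint share of all kept genes was not computed. The median of the other ribosome biogenesis genes fell from 0.32 to 0.17 with a pseudocount of 5. The members' median ranged from 0.34 (pseudocount 5) to 0.58 (pseudocount 0.1), and was 0.49 without Rrs1, which has a pseudogene row. It was 0.47 without the members that share 5% or more of their 50-base words with other genes, an alternative chosen after seeing the data. The same 36 members stayed above 0 under either scaling and either pseudocount. A larger pseudocount lowers ratios of low genes by construction, and the cause of the other changes was not tested. No paired analysis was possible because each group is 1 library. Low members such as Gar1 and Pinx1 rest on few reads, and no setting stands in for a replicate.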
